A study of Zea mays with 45 samples.

Results

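The comparison described here sets the mature zone of the maize leaf after a 14 h extension of the night against the same zone at the end of the day. The RNA came from genotype SL (KWS Einbeck), grown with 14 h light and 10 h dark periods, and darkness was prolonged by holding the chamber at its night settings. The extension followed a normal night, so the leaves of the extended night had been dark for 24 h in all. They were taken at the same clock hour as the end-of-day leaves, which had just passed a full light period. Absence of light and shortage of carbon cannot be told apart in this comparison, which read RNA only. No other agent or genotype enters the comparison. Each replicate was a pool of 5 plants, and the labels name the tissue only as the mature leaf region, against 0 to 1.5 cm above the ligule for the division zone and 3 to 4.5 cm for the elongation zone. Of 45 arrays in the study 5 enter the contrast, 3 at 14 h of extended night and 2 at the end of the day, because the column of the third end-of-day array holds no values.

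Darkness beyond the normal night exhausts the transitory starch that leaves store by day and burn by night. Plants then slow growth and breakdown of proteins, lipids and amino acids supplies respiration, with asparagine, rich in nitrogen and poor in carbon, as a store of the freed ammonium. The protein kinase SnRK1 and bZIP transcription factors are known as relays of this response in plants. A mature maize leaf no longer divides or expands, and its mesophyll and bundle sheath cells share the C4 pathway of carbon fixation.

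Expression was read on the Affymetrix maize array, in log2 units after RMA. All differences below are 14 h of extended night minus end of day on that scale, so a difference of 1 is a 2-fold change, and are given with the standard error (SE) of the limma fit. A gene rose or fell if its p-value, adjusted by the Benjamini-Hochberg method over all 17555 probe sets tested, was under 0.05. Of these probe sets 8085 (46.1%) changed, 4304 upward (24.5%) and 3781 downward (21.5%), and the median difference over all of them was 0.11. Changes of at least 1 were made by 1503 upward (8.56%) and 2150 downward (12.2%), so large changes were more often falls. The arrays of both groups did not overlap in 11391 probe sets (64.9%), and 3646 (20.8%) combined that with a called change of at least 1. The range ran from -5.87 to 7.51. Only 8.27% of the probe sets carry the name of a single gene, which gives 1108 named genes, and of these 588 (53.1%) changed: 271 rose (24.5%) and 317 fell (28.6%). Counts of list members below stand against these shares of all named genes, and a count near them is not particular to its list. As the tissue was sampled in bulk, fewer cells of a type and less RNA per cell cannot be told apart.

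The end-of-day arrays correlated at 0.993 with each other and the 14 h arrays at 0.979 to 0.988. In the end-of-night group replicate 3 differed most from the others (0.963 and 0.969); it is not part of the contrast but adds to the spread that the fit uses, and without it 8758 probe sets were called. Mesophyll and bundle sheath markers set the tissue apart from the growth zones, as its label has it. The summed level of 5 mesophyll markers was 16.08 to 16.09 at the end of the day in the mature zone, against 11.87 to 11.90 in the elongation zone, and 15.92 to 16.02 at 14 h. For 4 bundle sheath markers it was 15.40 to 15.45, against 10.70 to 10.72 in the elongation zone, and 15.11 to 15.22 at 14 h. The 4 KNOX genes of meristems gave 9.09 to 9.54 at the end of the day and 8.83 to 9.23 at 14 h, and 1 of them rose. At the end of the day they gave less in the growth zones, 8.73 to 8.90 in the elongation zone and 8.53 to 8.62 in the division zone. These genes therefore did not mark the growth zones. At 14 h 3 of the 4 lay below the dim level of 6.57, the 95th percentile of 66 probe sets for reporter genes that maize does not carry. Of the 28 leading genes, 12 had a group mean below that level, so that their differences have a side at background and their order is not settled. At the end of the day these were *Scl1*, *tip3a*, *wip1*, *mas1*, *ptk1* and *glu1*, whose rises were at least 2.30 to 4.49 when counted from the dim level. At 14 h they were *PEAMT*, *cesa2*, LOC541918, *nfa103*, *RR6* and LOC732726, whose falls were at least 2.18 to 4.98 in size.

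Among the named genes that rose were those of amino acid breakdown and asparagine synthesis. All 3 measured members of that list rose, by a median of 2.74. Asparagine synthetase *asn1* read 7.38 and 7.38 at the end of the day and 12.75, 13.18 and 12.65 at 14 h, so that the groups lay far apart and the 3 dark arrays close together. That is a difference of 5.48 ± 0.78 (adjusted p = 0.00013). The end-of-night arrays, which enter the pooled spread, read 11.40, 8.06 and 7.87. A dimmer probe set of the same gene differed by 0.65 and did not pass the test. Glutamate dehydrogenase *gdh1*, which releases ammonium from glutamate, rose by 2.74 ± 0.36. The first enzyme of lysine breakdown, *lkrsdh1*, rose by 2.52 ± 0.18, and less than in either growth zone: it rose by 5.27 in the elongation zone and by 5.15 in the division zone (adjusted p of the differences 0.00056 and 0.00048). For *asn1* those tests gave 0.20 and 0.45.

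Malate synthase *mas1*, which in the glyoxylate cycle turns acetate units from fatty acids into malate, read 6.25 and 6.46 at the end of the day and 11.27, 10.85 and 10.55 at 14 h. The dark arrays were all higher by more than 4. Its mean was 6.81 at the end of the normal night, on arrays that read 8.19, 6.06 and 6.18. At 6 h of extension the mean was 7.38, so most of the rise lay between 6 and 14 h. The other enzyme specific to that cycle, isocitrate lyase *ICL*, did not pass the test (0.12 ± 0.15). In the list of transcription factors of the dark response, not of such factors in general, 3 of 6 rose and 1 fell. The highest difference was that of *Scl1*, which read 5.46 and 5.42 and then 9.80, 11.38 and 10.77. The G-box binding factor *GBF1* rose by 3.43 ± 0.15 and the bZIP factor *lip15* by 1.52 ± 0.14, while the bZIP factor *OBF1* fell (-1.69 ± 0.11). All 3 probe sets of *OBF1* fell. Of the kinases, *SnrK1* rose by 2.78 ± 0.16 on arrays that read 7.95 and 7.87 and 10.46, 10.85 and 10.76. The small rise of *akin1* (0.28 ± 0.10, adjusted p = 0.046) lost its call without replicate 1 or 2 of the end of the day, replicate 1 or 3 of 14 h, or in a fit of only the 5 arrays compared, and its highest adjusted p was 0.17.

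Of 3 galactosidase-type genes 2 rose, and genes of sucrose metabolism moved in both directions. *AGA3b* and *AGA2*, which act on raffinose-family sugars, rose by 5.19 ± 0.13 and 3.13 ± 0.19, while *AGA1* did not pass the test (0.33 ± 0.22). *AGA3b* read 7.74 and 7.61 at the end of the day and 12.91, 12.92 and 12.76 at 14 h. Those 5 arrays form tight, distant groups, and the mean had already reached 11.53 at the end of the normal night and 13.35 at 6 h. In the list of sucrose metabolism and transport 2 of 11 genes rose and 3 fell, with a median of 0.29. The sign of that median rests on 3 genes below the dim level in both groups. Without them 1 of 8 rose and 3 fell, with a median of -0.34. Those that fell make or cleave sucrose: sucrose-phosphate phosphatase *spp1* (-2.52 ± 0.19), the last step of synthesis, sucrose-phosphate synthase *sps1* (-0.93 ± 0.14), the step before it, and vacuolar invertase *ivr2* (-3.12 ± 0.44). *spp1* read 11.66 and 11.86 and then 9.02, 9.38 and 9.32, with no overlap. In the growth zones *spp1* differed by -0.18 and -0.05, and both differences from the mature zone passed the test (adjusted p = 2.9e-10 and 2.8e-11). Sucrose synthase *sus2*, which cleaves sucrose without ATP, rose by 1.25 ± 0.21. The second rise in the list, that of the cell wall invertase *INCW2* (0.37 ± 0.11), lay below the dim level in both groups. Its call was lost without either end-of-day array or replicate 2 of 14 h, each of which left 1 rise in the list. The mean of *ivr2* at 14 h, 5.83, was below the dim level too.

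**Figure D1:**
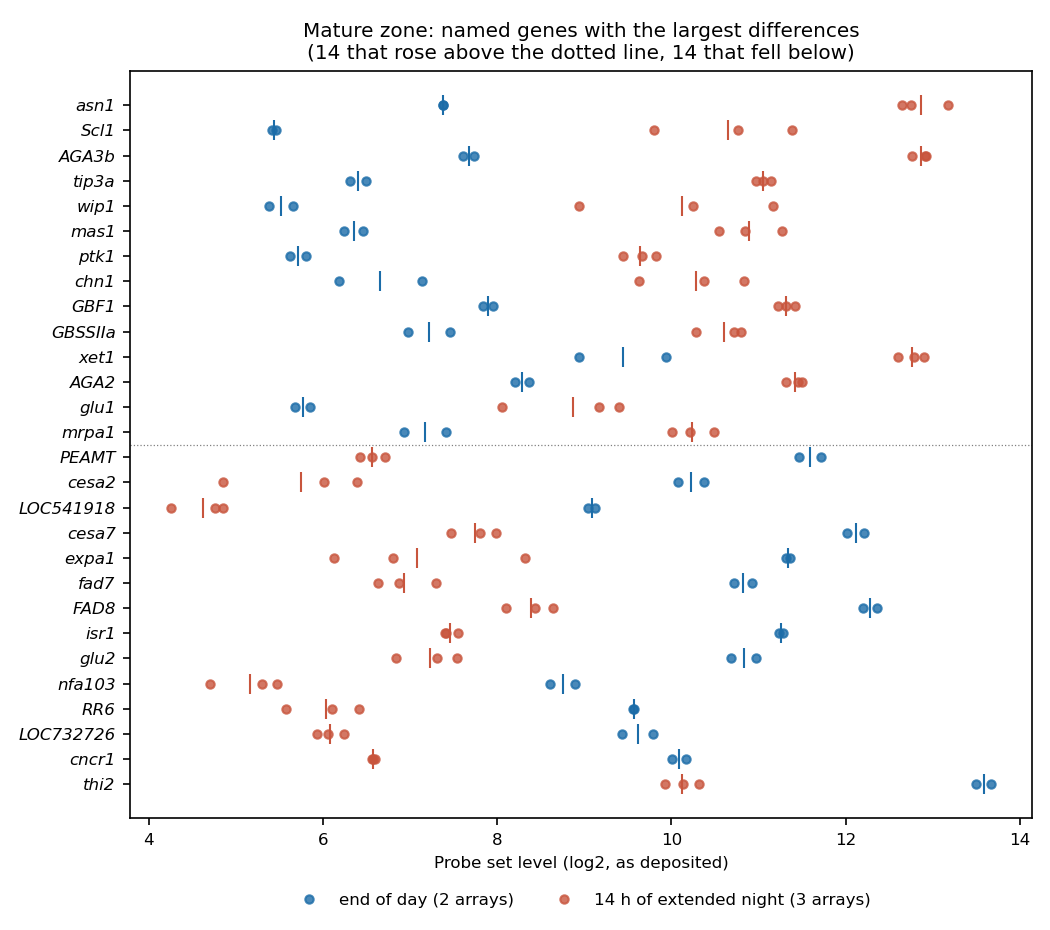
Level of each named gene with the largest differences in the mature zone, on the log2 scale as deposited (horizontal axis); points are arrays, 2 at the end of the day and 3 after 14 h of extended night, and ticks are group means. In each of the 28 genes the groups do not overlap, which was part of how they were chosen; 12 of them have a group mean below the dim level of 6.57, and the measured differences run from -5.03 for *PEAMT* to 5.48 for *asn1*.

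Starch synthesis genes fell and rose: 2 of 16 rose and 5 fell, with a median of -0.01. Of the 16, 7 lay below the dim level in both groups. Without these 2 of 9 rose and 4 fell, with a median of -0.37. *GBSSIIa*, the granule-bound starch synthase of leaves, read 6.98 and 7.46 at the end of the day and 10.80, 10.29 and 10.71 at 14 h, a difference of 3.38 ± 0.31. All dark arrays were higher, but the level was not highest then: its mean was 11.08 at 6 h and 8.88 at 24 h. The growth zones showed 0.24 and -0.40, and both differences from the mature zone passed the test (adjusted p = 1.2e-10 and 5.9e-13). The debranching enzyme *zpu1* rose by 0.79 ± 0.22, but not without replicate 2 of the end of the day (adjusted p = 0.071). Those that fell were 3 genes of ADP-glucose pyrophosphorylase, which makes the substrate of starch synthesis, namely *bt2* (-1.38 ± 0.23), *AGP2* (LOC542737; -1.15 ± 0.14) and *sh2* (-1.13 ± 0.16, below the dim level in both groups), and the isoamylase-type genes *iso2* (-1.38 ± 0.15) and *iso3* (-1.58 ± 0.19). At 14 h *bt2* and *iso3* lay below the dim level. The leaf pyrophosphorylase gene *agpsl1* differed by -0.03 ± 0.11.

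Genes of the photosystems, of C4 and Calvin cycle enzymes and of pigment synthesis fell or did not pass the test, and 1 of 2 light-harvesting genes rose. Of 9 photosystem and electron transport genes 3 fell and 0 rose, with a median of -0.01: the ferredoxins *fdx2* (-1.63 ± 0.17) and *FDX6* (-0.93 ± 0.21), which hand electrons on from photosystem I, and *psbs1* (-0.48 ± 0.10), which serves the shedding of excess light. Of the light-harvesting genes *lhcb5* rose by 0.43 ± 0.09 and *lhcb6* did not pass the test (0.05 ± 0.17). Of 8 genes of the C4 and Calvin cycles 4 fell, the most in *mdh6* (-0.74 ± 0.15); without replicate 1 of the end of the day 2 fell, and 2 with each array centred on its median. In the pigment list 4 of 5 genes of chlorophyll and carotenoid synthesis fell, with a median of -1.25. In carotenoid synthesis phytoene synthase *psy2* fell (-2.13 ± 0.28), as did the desaturases *zds1* (-2.59 ± 0.14) and *pds1* (-0.94 ± 0.13). *oy1*, a subunit of the magnesium chelatase of chlorophyll synthesis, fell too (-1.25 ± 0.17). *zds1* read 10.16 and 10.33 at the end of the day and 7.79, 7.65 and 7.53 at 14 h, with no overlap. For *psy2*, *zds1* and *pds1* the change differed from that of both growth zones; in the elongation zone it was 0.26, -0.91 and 0.68. *psy2* was below the dim level at 14 h, and in both growth zones at both times.

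The plastid desaturases that make trienoic fatty acids fell strongly. *FAD8* read 12.20 and 12.36 and then 8.10, 8.64 and 8.44, a difference of -3.88 ± 0.17, and *fad7* fell with it (-3.89 ± 0.29). In the elongation zone *FAD8* differed by 0.19 and in the division zone by 0.18. The largest measured fall of a named gene was that of *PEAMT*, the methyltransferase that starts choline synthesis, which read 11.46 and 11.72 and then 6.57, 6.71 and 6.42. The measured difference was -5.03 ± 0.23, and since the dark mean lay at the dim level the fall was at least 4.98. Both thiamine genes, *thi1* and *thi2*, which make the thiazole part of the vitamin, fell (-2.29 ± 0.30 and -3.46 ± 0.24). *thi2* read 13.50 and 13.67 at the end of the day and 10.31, 9.92 and 10.13 at 14 h, but its mean was lower still at the end of the normal night (9.22) and at 6 h (8.48), and 11.73 at 24 h. Its level at 14 h therefore lay above that of the earlier dark times.

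Nitrogen assimilation showed 3 falls and no rise among 8 genes, with a median of -0.62. Nitrate reductase *NNR1* (-1.72 ± 0.26) and nitrite reductase *NIR* (-1.17 ± 0.21), which reduce nitrate to ammonium, fell, and so did *GLN6* (-2.78 ± 0.14), a glutamine synthetase by its symbol. *GLN6* read 11.19 and 11.24 and then 8.40, 8.53 and 8.38, and in the growth zones, where it was below the dim level at both times, it differed by 0.19 and -0.05. Without replicate 2 of 14 h 1 gene of the list rose. The mean of *NNR1* was higher at the end of the normal night (12.59) than at the end of the day (10.79), and 9.07 at 14 h.

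**Figure D2:**
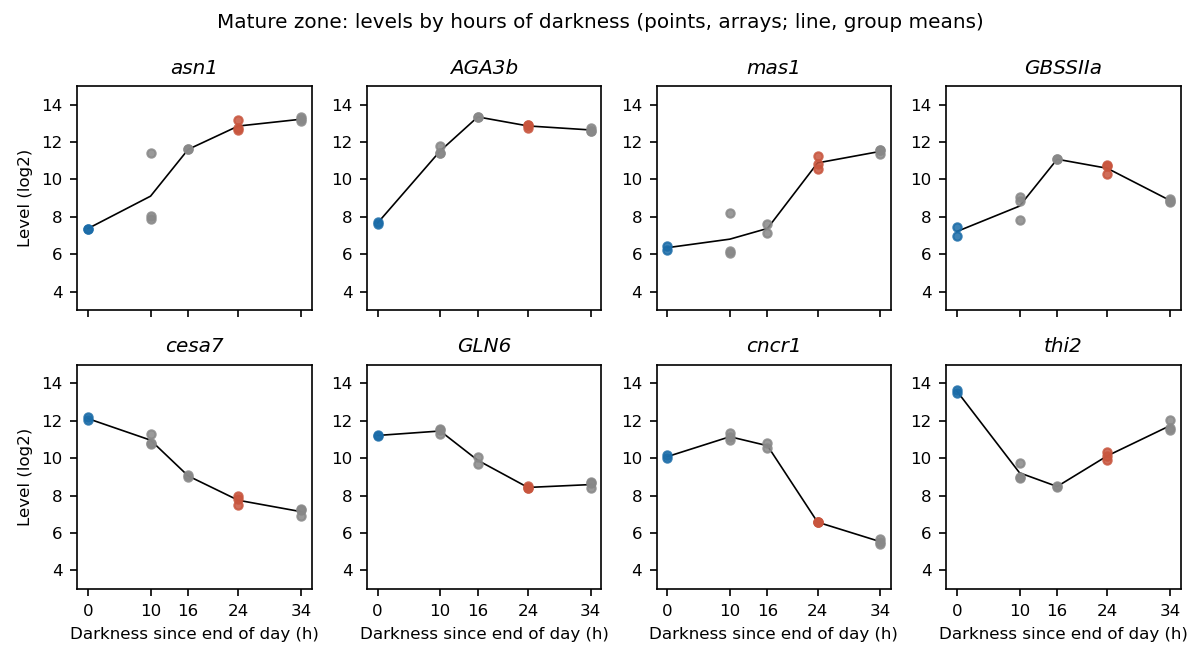
Level (log2, vertical axis) of 8 genes in the mature zone against hours of darkness since the end of the day (horizontal axis); points are arrays, the line joins group means, blue marks the end of the day and red the 14 h extension, at 24 h of darkness. *AGA3b* was already at 11.53 at the end of the normal night, *mas1* rose mainly after 6 h of extension, *cncr1* was at 11.15 at the end of the night and 6.58 at 14 h, and *thi2* had its lowest mean, 8.48, at 6 h.

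Most cellulose synthase and lignin genes fell. Of 12 cellulose synthase genes 11 fell and 0 rose, with a median of -2.38; the exception, *cesa5*, did not pass the test (0.22 ± 0.35). *cesa7* read 12.21 and 12.02 at the end of the day and 7.47, 7.98 and 7.80 at 14 h, and *cesa2* 10.37 and 10.07 and then 4.86, 6.02 and 6.39. In both genes every dark array lay at least 3 below every light array. The differences were -4.37 ± 0.20 and -4.47 ± 0.44, and the smallest fall was that of *cesa3* (-1.17 ± 0.12). The falls included *cesa10* (-3.08 ± 0.26), *cesa11* (-1.52 ± 0.15) and *CesA12* (-1.75 ± 0.17), the synthases of secondary walls, as in xylem. At 14 h 5 of the 11, among them *cesa2* and *cesa10*, had means below the dim level, so the sizes of these falls are not settled. All 11 remained called under each of the 13 alternative settings and left-out arrays. Of 5 lignin genes 4 fell, with a median of -1.54. Cinnamoyl-CoA reductase *cncr1*, the entry into monolignol synthesis, read 10.00 and 10.16 at the end of the day and 6.57, 6.58 and 6.60 at 14 h, a difference of -3.50 ± 0.13. The dark arrays were nearly equal. The ligase *4CL* (-1.82 ± 0.16), the alcohol dehydrogenase gene *BM1* (-1.54 ± 0.21) and the ammonia lyase *pal3* (-1.11 ± 0.24) fell as well. The remaining gene, *ccr2* (0.37 ± 0.14), did not pass the test, and 1 gene of the list rose without replicate 3 of 14 h or of the end of the night. Markers of vasculature and xylem moved with these lists: 5 of 6 fell, with a median of -1.64, their summed level was 12.18 to 12.48 at the end of the day and 11.37 to 11.61 at 14 h, and 3 of them are the synthases just named. The part of such cells in the result was not tested.

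Among expansins and xyloglucan enzymes, which loosen walls, 1 of 13 rose and 3 fell, with a median of 0.25. The expansins *expa1* (-4.25 ± 0.52), *expB6* (-3.38 ± 0.21) and *EXPA5* (-2.79 ± 0.24) fell, while the xyloglucan endotransglycosylase *xet1* rose by 3.32 ± 0.23. A second gene rose without replicate 2 of the end of the day or of 14 h. The 14 h means of *expB6* and *EXPA5* were below the dim level. *xet1* read 8.94 and 9.94 at the end of the day and 12.60, 12.90 and 12.78 at 14 h, and the end-of-day arrays lay further apart than those at 14 h. The mean of *xet1* had already reached 12.30 at the end of the normal night. Of 12 tubulin genes 7 fell and 0 rose, with a median of -1.45, led by *tub3* (-2.76 ± 0.25), which read 11.03 and 10.89 and then 8.15, 7.79 and 8.64. The 7 became 3 without replicate 1 of the end of the day, 4 without its replicate 2 and 8 when the end-of-night replicate 3 was dropped.

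Most genes of cytosolic ribosomal proteins fell: 10 of 14 fell and 1 rose, with a median of -1.31. *rpl29* read 13.12 and 13.12 and then 11.48, 11.72 and 11.58, a difference of -1.53 ± 0.14, with no overlap. The largest fall was that of the acidic protein *rpp1a* (-1.89 ± 0.30), although a second probe set of it differed by -0.07. *RPS10* rose by 0.85 ± 0.12. In the elongation zone the median over the same genes was -0.21 and in the division zone -0.04.

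Few cell cycle genes and 3 of 5 histone genes of the lists rose. Of 13 cell cycle and replication genes 2 rose and 11 did not pass the test, with a median of 0.20, and 7 lay below the dim level in both groups. A fall of 1 gene was called without replicate 2 of 14 h and in the fit of all 15 groups. The kinase *cdc2*, which drives cells into mitosis, read 7.86 and 7.77 at the end of the day and 9.29, 9.32 and 9.68 at 14 h and rose by 1.62 ± 0.20. The retinoblastoma-type gene *RBR1*, which restrains entry into replication, rose by 0.57 ± 0.11. Of 5 histone genes 3 rose (and 1 fell in a fit of only the 5 arrays compared), led by the linker histone gene *hon101*, which read 9.85 and 10.21 and then 11.93, 11.95 and 12.00. That rise of 1.93 ± 0.17 left no overlap between the groups. The smallest of the rises, that of *his1a* (0.43), lost its call without either end-of-day array and without replicate 2 or 3 of 14 h. It was also lost with the replicate number as a block. Each of these settings left 2 rises in the list. The nucleosome assembly gene *nfa103*, which is in neither list, fell (-3.59 ± 0.47). The 8 markers of dividing cells, all members of these lists, had a summed level of 12.22 to 12.46 at the end of the day and 13.27 to 13.36 at 14 h, with 1 below the dim level; 4 rose and 0 fell. Their part in the result was not tested.

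**Figure D3:**
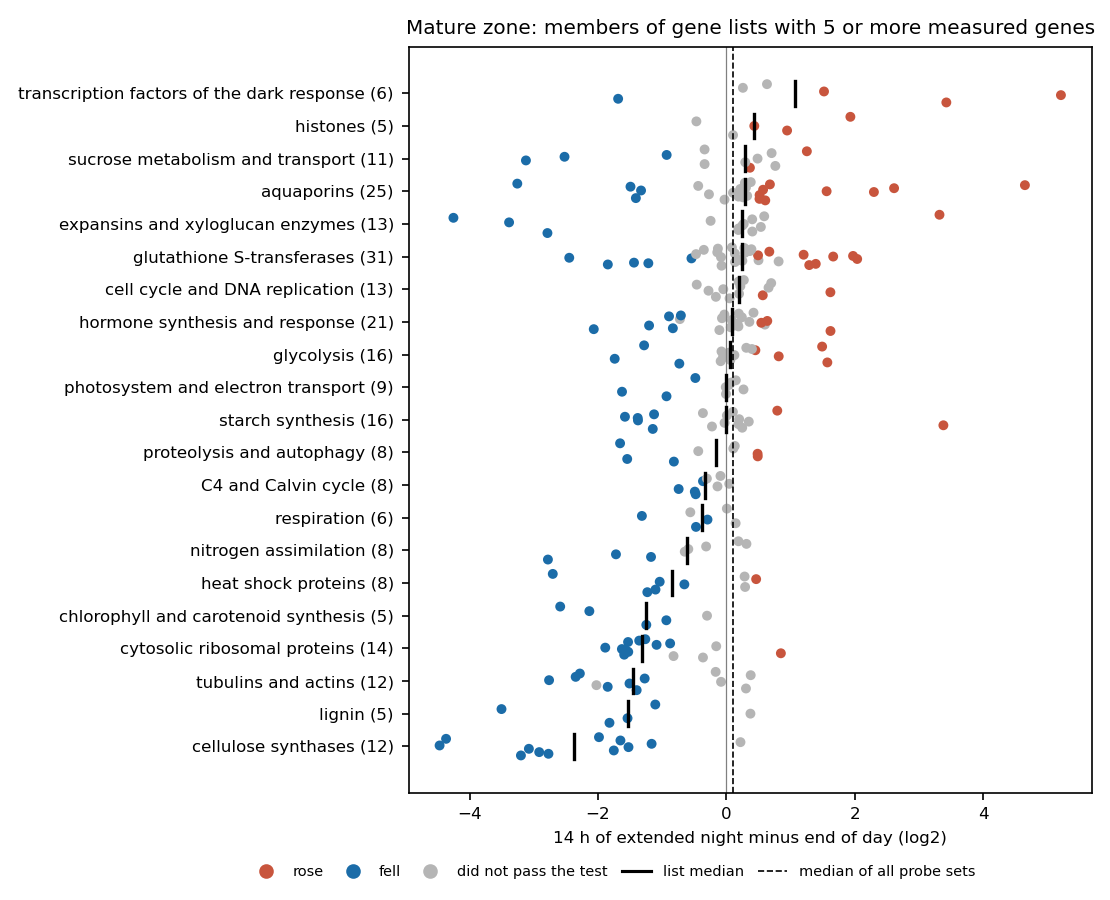
Difference between 14 h of extended night and end of day (log2, horizontal axis) for each member of the gene lists with at least 5 measured genes, in the mature zone; points are genes, coloured by whether they rose, fell or did not pass the test, black bars are list medians and the dashed line is the median of all probe sets, 0.11. Cellulose synthases have the lowest median, -2.38, and transcription factors of the dark response the highest, 1.08. The lists were chosen with earlier results of these data known, so their order is no test.

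Proteases moved in both directions. Of 8 genes, all of cysteine proteases or legumain-type processing enzymes, 2 rose and 3 fell, with a median of -0.17. The falls were those of *ccp1* (-0.82 ± 0.11), *ccp2* (-1.55 ± 0.13) and the processing enzyme *see2b* (-1.66 ± 0.17). The rises of *mir1* (0.49 ± 0.16) and *mir2* (0.49 ± 0.18) lost their calls without either end-of-day array, without replicate 3 of 14 h and in a fit of only the 5 arrays compared, each of which left 0 rises in the list. Without replicate 1 or 2 of 14 h 1 rise was left. *mir1* lay below the dim level in both groups. Among proteinase inhibitors the wound-induced *wip1* read 5.66 and 5.38 and then 8.93, 11.17 and 10.25. Its difference of 4.60 ± 1.17 carries the largest error of the leading genes. The dark arrays span more than 2, and the end-of-night arrays, which enter the pooled spread, read 10.33, 5.34 and 6.11. The inhibitor *cc3* (0.67 ± 0.22), the other of 2 rises among 4 inhibitor genes, lost its call without either end-of-day array and without replicate 1 or 2 of 14 h, and in a fit of only the 5 arrays.

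Aquaporins, which let water pass the plasma membrane (PIP) or the vacuole membrane (TIP), made 9 rises and 4 falls among 25 genes, with a median of 0.29. Of the 25, 8 lay below the dim level in both groups, and without these 8 of 17 rose and 3 fell. Those 8 dim genes include the called *tip3b* (0.68) and *pip2d* (-1.33). The call of *pip2d* was also lost without replicate 1 or 3 of 14 h. *tip3a* read 6.31 and 6.50 at the end of the day and 10.97, 11.15 and 11.05 at 14 h, so no array came near those of the other group. It rose by 4.65 ± 0.35, *tip1* by 2.61 ± 0.17 and *pip2b*, dim at the end of the day, by 2.30 ± 0.16. The mean of *pip2b* was higher at the end of the normal night (8.33) than at 14 h (7.70). *tip4a*, dim at 14 h, fell (-3.26 ± 0.15), as did *tip2a* (-1.49 ± 0.12) and *SIP1B* (-1.41 ± 0.13). Both directions thus occurred among vacuolar members.

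In glycolysis and fermentation 4 of 16 genes rose and 3 fell, with a median of 0.05. Of the rises, that of *pdc1* (0.45) lay below the dim level in both groups. Its call was lost without replicate 1, 2 or 3 of 14 h and in a fit of only the 5 arrays compared. Alcohol dehydrogenase *adh1* rose by 1.57 ± 0.20, phosphofructokinase *pfk1* by 1.49 ± 0.12 and fructokinase *frk1* by 0.81 ± 0.14, while *phi1*, the isomerase of glucose 6-phosphate, fell (-1.28 ± 0.17), as did enolase *eno1* (-1.74 ± 0.12) and *GAPC* (-0.73 ± 0.10), a glyceraldehyde phosphate dehydrogenase. In the growth zones *adh1* differed by -0.28 and -1.08 (adjusted p of the differences from the mature zone 1.2e-09 and 1.7e-13). Of 6 respiratory genes 3 fell and 0 rose, with a median of -0.38, and the largest fall was in the alternative oxidase gene *aox1* (LOC542073; -1.32 ± 0.15), dim at 14 h. Of 8 heat shock proteins 5 fell and 1 rose, with a median of -0.85: the mitochondrial *hsp22* fell most (-2.70 ± 0.27), and the chaperones of the endoplasmic reticulum *bip1* (-1.23 ± 0.36) and *bip2* (-1.10 ± 0.24) fell with it. *hsp22* was below the dim level at 14 h. Without replicate 1 of the end of the day 3 fell, as *bip1* (adjusted p = 0.17) and *hsp18* lost their calls, and *hsp18a* lost its call without replicate 2.

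Glutathione S-transferases, which conjugate foreign and reactive compounds, gave 8 rises and 5 falls among 31 genes, with a median of 0.25. They ran from -2.45 ± 0.36 in *gst19* to 2.04 ± 0.14 in *gst17*. Over all named genes 24.5% rose and 28.6% fell. Of 21 genes of hormone synthesis and response 3 rose and 5 fell, with a median of 0.08; without either end-of-day array 2 rose and 3 fell, and 5 rose when the end-of-night replicate 3 was dropped. The ACC oxidase gene *ACO20* rose by 1.62 ± 0.31 and the ethylene receptor gene *etr2* by 0.64 ± 0.14. The largest fall was that of *an1* (-2.07 ± 0.22), which acts early in gibberellin synthesis and was dim at 14 h. The response regulator gene *RR6*, of the kind that cytokinin signalling uses, which is not in that list, read 9.56 and 9.57 and then 5.58, 6.10 and 6.42, a difference of -3.53 ± 0.27.

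Other named genes of large change belong to no list. The ABC transporter gene *mrpa1* rose by 3.06 ± 0.27, the chitinase gene *chn1* by 3.62 ± 0.36, and the gene annotated *ptk1* by 3.93 ± 0.16. The beta-glucosidase genes *glu1* and *glu2* moved apart: *glu1* read 5.85 and 5.68 and then 8.05, 9.40 and 9.16, and *glu2* read 10.97 and 10.69 and then 6.84, 7.54 and 7.31. *glu1* rose by 3.10 ± 0.39 and *glu2* fell (-3.60 ± 0.39). Falls were also made by *isr1* (-3.80 ± 0.14) and by the genes known here only as LOC541918 (-4.46 ± 0.23) and LOC732726 (-3.53 ± 0.17). Among probe sets without a gene name, Zm.1458.1.S1_at read 4.94 and 5.02 at the end of the day and 12.53, 12.46 and 12.47 at 14 h, so that its end-of-day level was dim. Zm.6105.1.S1_at, dim at the end of the day too, rose by 7.03, and Zm.3569.1.A1_at (-5.87) and Zm.12169.1.S1_at (-5.17) fell.

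The same dark period was read in the growth zones, and the difference of the changes was tested in a single fit of all zones. Mature and elongation zones changed by different amounts in 6524 probe sets (37.2%), of which 3355 were higher (19.1%) and 3169 lower (18.1%). Against the division zone it differed for 7666 (43.7%), of which 4148 were higher (23.6%) and 3518 lower (20%). Differences of at least 1 in size, whether called or not, numbered 3740 for mature tissue, 2041 for elongating tissue and 1540 for the division zone. The mature-zone arrays varied more and had a weight of 0.427 in that fit, against 1.34 and 1.59.

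Cellulose synthases changed differently in the mature zone. For 11 of 12 the change was lower than in the elongation zone, and likewise for 11 against the division zone, where the medians were -0.23 and -0.24 against -2.38. *cesa7* differed by 0.08 in the elongation zone and by -0.59 in the division zone. The synthase *cesa10* lay below the dim level in the elongation zone at both times. For ribosomal protein genes the change was lower in 10 of 14 than in the elongation zone and in 11 than in the division zone. In tubulins these counts were 6 and 7 of 12. For 6 of 13 cell cycle genes the change was higher than in each growth zone, where 9 of 13 fell and 3 rose. In the mature zone 7 of the 13 lay below the dim level at both times, against 1 in each growth zone. A fall of those genes could not be read in the mature zone, so these counts do not show a different response there. Over all probe sets 52.5% changed in the elongation zone (24.6% up and 27.9% down) and 55.6% in the division zone (24.8% up and 30.8% down). The replication clamp *pcna1* read 7.20 and 7.78 at the end of the day and 8.55, 7.78 and 8.22 at 14 h in the mature zone and did not pass the test there (0.70 ± 0.58), and it fell in the elongation zone (-2.62) and the division zone (-1.69). The groups of the mature zone did not overlap, but lay close.

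**Figure D4:**
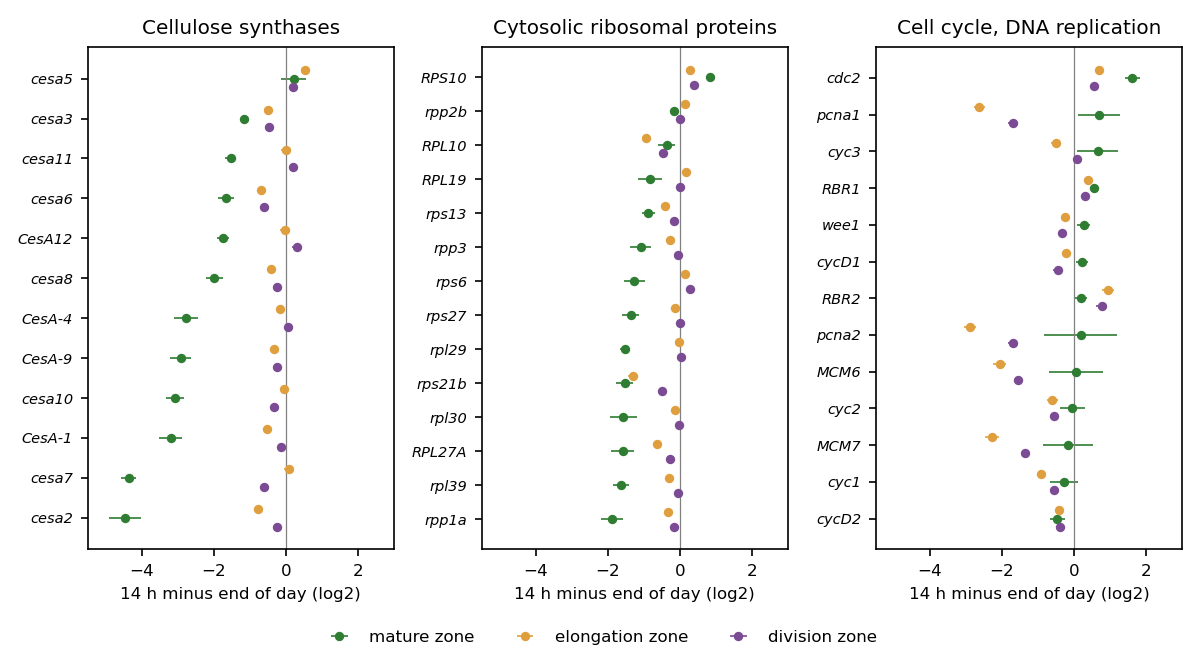
Difference between 14 h of extended night and end of day (log2, horizontal axis) in the mature, elongation and division zones for members of 3 lists; points are fitted differences and bars are SE. For *cesa7* the mature zone shows -4.37 against 0.08 and -0.59 in the growth zones, and for *pcna1* 0.70 against -2.62 and -1.69.

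Some genes changed in opposite directions. *lpa1* (LOC542540), also annotated *INO1*, rose by 2.19 ± 0.18 in the mature zone and fell in the elongation zone (-1.11) and the division zone (-1.10). Its mature-zone mean was higher at the end of the normal night (11.06) than at 14 h (10.63). The proton pump of the vacuole *vpp1* fell in the mature zone (-1.07 ± 0.21) and rose by 2.02 and 2.94 in the growth zones. *EXPA5* fell in the mature zone, on arrays that read 8.85 and 8.59 and then 5.91, 6.21 and 5.68, and rose by 2.27 in the division zone. In all of these the difference between zones passed the test. By contrast, for *tip3a*, *mas1*, *GBF1* and *AGA2*, which rose in each of the 3 zones, it did not: *tip3a* differed by 5.60 and 4.80 in the growth zones, and *GBF1* by 3.90 and 3.86. A p above the threshold does not show that the zones responded alike.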

How the data were processed

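RNA of the mature leaf zone was hybridised to the Affymetrix maize array, and the authors deposited log2 signal intensities that, per the submitters' processing notes, come from RMA (version not given in the sources used here). These were used as deposited, without 113 control and 66 reporter probe sets. All 13 mature-zone arrays with values (5 times) were fitted with limma (3.58.1; R 4.3.3), which left 8 residual and 3.11 prior degrees of freedom. The contrast was 14 h of extended night minus end of day. Zone differences came from a fit of all 42 arrays with zone weights. Data were simulated for the first comparison over 17555 probe sets, of which 200 were changed. The fit found 22.7%, 71.6% and 97% of changes of 0.5, 1 and 2, and 9 of its 137 calls were false. In the measured contrast 8085 probe sets were called, so these rates need not hold there. The median SE was 0.168, and precision is limited by the number of arrays.

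The platform annotation names 1 gene for 1452 probe sets, and gene names come from RefSeq synonyms (Zm-B73-REFERENCE-NAM-5.0, names only). The brightest probe set stands for a gene. The gene lists and the comparison were chosen with earlier results of these data known, and unrelated genes with a matching symbol were removed. Individually named genes are the 14 with the highest and the 14 with the lowest differences (called, at least 1, no overlap of arrays, the higher group mean above the dim level), the 6 highest and 6 lowest in each zone difference, members of the lists, and 4 unnamed probe sets. The circadian clock list had 0 genes on the annotation, the starch degradation list 1 gene (*amy5*, not called), and the galactoside list held only *AGA* genes. Promoter sequences were not analysed here.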

Additional observations from a re-analysis of the deposited data

Results flagged for a closer look

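Changes that differed between zones were picked out by the test of the difference itself. Against the elongation zone 6524 probe sets differed. The named genes whose mature-zone change was higher by the most, on the log2 scale with SE, were *nfd106* (3.77 ± 0.69), *ptk1* (3.55 ± 0.23), *LOC542127* (3.37 ± 0.29), *pcna1* (3.32 ± 0.49), *lpa1* (LOC542540) (3.30 ± 0.31) and *GBSSIIa* (3.14 ± 0.28). Those lower by the most were *cesa7* (-4.44 ± 0.29), *LOC541918* (-4.39 ± 0.22), *FAD8* (-4.07 ± 0.27), *expB6* (-3.91 ± 0.39), *cesa2* (-3.70 ± 0.35) and *tip2a* (-3.62 ± 0.83). In *nfd106* and *pcna1* the mature zone itself did not pass the test, and the growth zone fell; *nfd106* was below the dim level in the mature zone. *LOC541918*, *expB6* and *ptk1* lay below that level in the elongation zone at both times, so that a fall there could not be read and these differences rest on the mature-zone change.

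Against the division zone 7666 probe sets differed. The named genes higher by the most were *ptk1* (3.98 ± 0.22), *GBSSIIa* (3.78 ± 0.26), *Scl1* (3.39 ± 0.49), *chn1* (3.38 ± 0.91), *lpa1* (LOC542540) (3.29 ± 0.30) and *glu1* (3.13 ± 0.61), and those lower by the most were *EXPA5* (-5.05 ± 0.42), *PLTP* (-4.35 ± 0.60), *LOC541918* (-4.35 ± 0.21), *cesa2* (-4.23 ± 0.34), *FAD8* (-4.06 ± 0.26) and *vpp1* (-4.01 ± 0.40). In *PLTP*, a lipid transfer protein gene, *EXPA5* and *vpp1* the zones moved in opposite directions. The 4 probe sets of *PLTP* did not go together in the mature zone. The one used here differed by -1.36 and the others by -1.64, 0.14 and 0.43, of which the positive ones did not pass the test. For *chn1* the call was lost when the mature zone's end-of-day replicate 2 was dropped (adjusted p = 0.053). *LOC541918*, *ptk1* and *chn1* were below the dim level in the division zone at both times.

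Reporter and selection-marker probe sets, which have no maize target and enter no comparison, were also read. Of 66 such probe sets 12 were called higher at 14 h and 0 lower, with a largest difference of 0.76. Differences below that size in dim probe sets carry this background. No group of the comparison had the 4 arrays that a search for outlying arrays needs.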

How the results depend on the processing

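The number of probe sets that changed in the mature zone, 8085, stayed within 1.5 times under all 13 alternatives, from 6211 without replicate 1 of the end of the day to 10678 with all 15 groups in the fit; single arrays of the contrast left out gave 6211 to 7759, and 8758 changed without the end-of-night replicate 3. The zone differences gave 4839 to 6474 and 5654 to 7697 with single arrays left out, and 7817 and 9162 without zone weights. With each array centred on its median, 4966 rose and 3442 fell in the mature zone. Shared replicate numbers did not pair the arrays (correlations of deviations -0.02 and -0.12 for the 2 shared numbers), and with the replicate number as a block 7801 changed in the mature zone, while the zone differences gave 6563 and 7661; with that block *akin1*, *mir1*, *mir2* and *his1a* were not called, which left 1 rise among 2 kinases and 0 among 8 protease genes. Of 153 called genes among the leading genes and list members, 122 stayed called under all 13 alternatives, 31 lost the call under at least 1 and 0 changed direction; the 28 leading genes all kept theirs. The end of the day rests on 2 arrays, and most of the lost calls were lost when 1 of them was left out. Dropping the end-of-night replicate 3, 12 of 14 ribosomal protein genes fell and 3 of 13 cell cycle genes rose. With all 15 groups in the fit, rises went from 1 to 5 among expansins, from 3 to 7 among hormone genes, from 2 to 4 among sucrose genes and from 8 to 13 among glutathione S-transferases, and falls from 3 to 5 in nitrogen assimilation. With each array centred, 4 sucrose genes rose. The causes were not tested.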

Other observations

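Markers of other tissues moved in both directions. Of 9 epidermis and cuticle markers 3 rose and 5 fell, with a median of -0.53 and a summed level of 12.30 to 12.40 at the end of the day and 11.62 to 12.01 at 14 h. Of 15 markers of expanding cells 1 rose and 3 fell, and their summed level, which includes *xet1*, was 12.18 to 12.36 and then 12.88 to 13.16. At 14 h *xet1* alone read 12.60, 12.90 and 12.78, so that sum is mostly its signal. At that time 8 of the 15 lay below the dim level.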
